A study of Mus musculus with 6 samples.

Results

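A set of 6 blood vessel genes was followed in reloaded mouse soleus muscle. They were the VEGF receptor genes Kdr, Flt1 and Flt4, the angiopoietin genes Angpt1 and Angpt2, and the ephrin gene Efnb2. They were chosen by symbol from the platform annotation of the arrays, which gave 1 probe to each, so the set held 6 of the 203 genes and 6 of the 223 probes. All samples belonged to a single group of 6 arrays, replicates 1 to 6, titled as wild type. Total RNA (3 micrograms per array) was taken from cryosections of soleus, a slow postural muscle of the hindlimb, of C57Bl/6 mice after 1 day of reloading. The labels gave no age, did not expand the title prefix HUR and did not say that the samples came from separate animals. Every spread and p-value therefore rests on differences between samples that may be partly technical. No unloaded or untouched muscle was analysed here, so the data show how levels varied between reloaded samples and not how they responded to reloading.

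VEGF proteins are secreted growth factors that act on receptor tyrosine kinases of endothelial cells. KDR carries most of the growth and permeability signal, FLT1 binds VEGF-A tightly and also occurs as a soluble form that holds ligand back, and FLT4 binds VEGF-C and VEGF-D and in adult tissue is best known from lymphatic endothelium. Angiopoietins act on the endothelial receptor TEK: ANGPT1, made mainly by mural and stromal cells, stabilises vessels, whereas ANGPT2, made by endothelium, can oppose it. Ephrin B2 is a membrane ligand that marks arterial endothelium.

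Relative to the median of its array or after quantile normalization, Kdr varied least of the members. In raw units or after scaling to the 28S ribosomal RNA, Flt1 did. Flt1 and Efnb2 kept a near constant ratio on 5 of 6 arrays, Angpt2 was high in 2 or 3 samples depending on the scale, and Flt4 and Angpt1 lay near background. The intensities were linear and in arbitrary units. Some were at or below 0, from which a subtraction of background is inferred, although no source used here names the method. The lowest value found on an array, with its sign turned, served as the noise bound of that array. That bound was 0.0144 on replicate 1 and between 0.0011 and 0.0028 on replicates 2 to 6. The summed intensity of all probes was 165.3 on replicate 1, 35.2 to 41.3 on replicates 2 to 5 and 13.8 on replicate 6, an 11.9-fold difference, so the arrays shared no common scale. The endothelial marker genes Pecam1, Cdh5 and Tek exceeded the bound on 6 of 6 arrays, and Nos3, the endothelial nitric oxide synthase, on 2 of 6. Of the members, 4 exceeded the bound on all 6 arrays (Kdr, Flt1, Angpt2 and Efnb2), against 58.3% of all 223 probes. Flt4 exceeded it on 4 of 6 arrays and Angpt1 on 1 of 6.

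The start regions of Efnb2 and Flt4 are shown because no other member had one that could be used, as set out below. These 2 genes also had the highest Pearson correlation of median-centred levels among the members. It is given further on and did not pass adjustment. By rank Flt4 and Angpt2 came first, and in deposited units or after quantile normalization Flt1 and Efnb2 did. RefSeq start regions of build GRCm38.p6 matched Kdr, Flt1, Flt4 and Efnb2, and only those of Efnb2 and Flt4 lay wholly outside the listed span of their gene. Each sequence gives the 250 bases before the start, 5′ to 3′ on the strand of the gene, with matches to GGAA or its complement TTCC in capitals. GGAA is the core bound by ETS factors, a family active in endothelium. That of Efnb2 lies at chr8:8661243-8661492 on the minus strand and that of Flt4 at chr11:49609429-49609678 on the plus strand.
Efnb2: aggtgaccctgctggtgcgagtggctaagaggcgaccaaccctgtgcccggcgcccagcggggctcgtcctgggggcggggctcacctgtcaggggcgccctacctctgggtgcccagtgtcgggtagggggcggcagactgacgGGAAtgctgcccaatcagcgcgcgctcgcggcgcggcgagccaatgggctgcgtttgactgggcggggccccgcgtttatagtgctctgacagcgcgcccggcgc
Flt4: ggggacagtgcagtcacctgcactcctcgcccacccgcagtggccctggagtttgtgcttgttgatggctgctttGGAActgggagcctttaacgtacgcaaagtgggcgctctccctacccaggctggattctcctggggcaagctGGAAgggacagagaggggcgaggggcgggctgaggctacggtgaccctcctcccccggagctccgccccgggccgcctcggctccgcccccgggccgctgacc
The Efnb2 window held 1 match and the Flt4 window 2. Of 32851 windows of the same length, 93.4% held at least 1, so a match sets neither gene apart. ACGTG or its complement CACGT, the core of hypoxia response elements, was in neither window and in 16.6% of all windows. Both windows were rich in G and C, with 72.0% for Efnb2 and 68.4% for Flt4, against a median of 52.4%. These are counts of letters and not of binding sites.

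**Figure D1:**
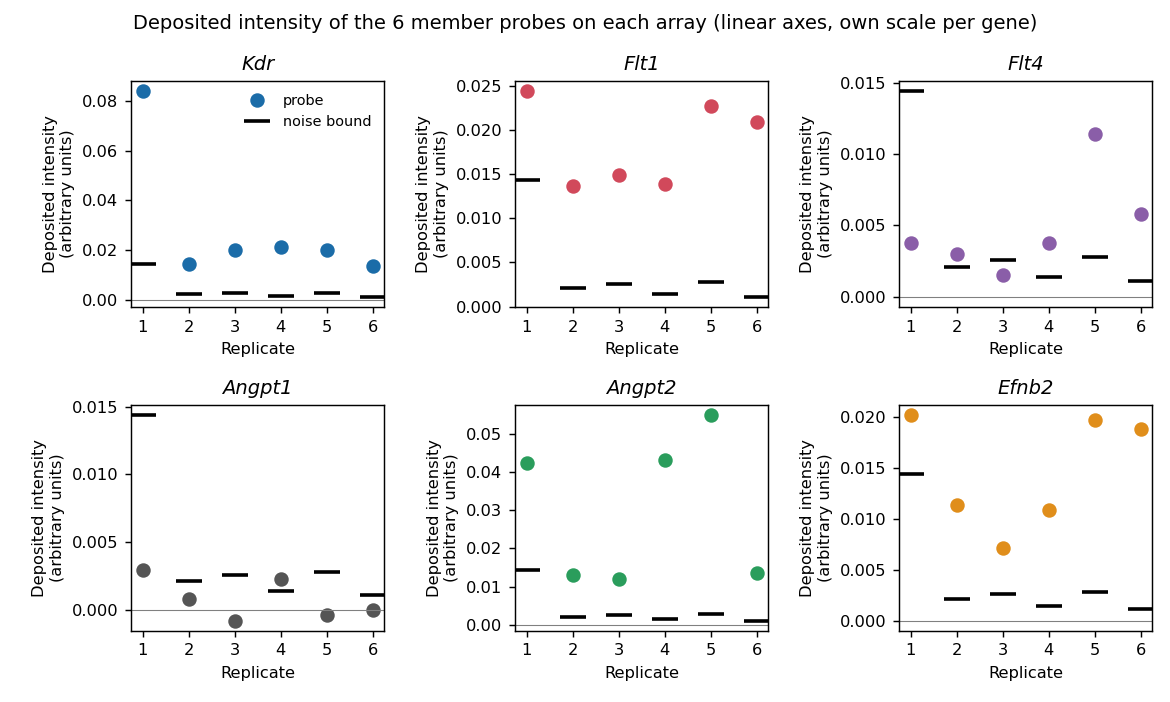
Deposited intensity (arbitrary units, linear axes, a separate scale per gene) of each member probe on replicates 1 to 6, with dots for the probe and dashes for the noise bound of the array. Kdr reached 0.0841 on replicate 1 and stayed between 0.0137 and 0.0212 on the others, Flt1 and Efnb2 were high on replicates 1, 5 and 6, and Angpt1 exceeded the bound on replicate 4 alone.

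Kdr, the main signalling receptor for VEGF-A, had a lowest intensity of 0.0137 (replicate 6), a median of 0.0202 and a highest of 0.0841 (replicate 1). Replicate 1 stood apart in these units, and the other 5 arrays spanned 1.55-fold. On the log2 scale, with each array centred on the median of the 175 probes above 0 on all arrays, Kdr was at 0.30 ± 0.19 (SD, n = 6). A value of 0 on this scale is the median of those probes on the array. The lowest centred level was -0.069 on replicate 2, and the other 5 lay between 0.26 and 0.47, a 1.16-fold range. Over all 6 arrays the centred range was 1.45-fold, against 6.14-fold in deposited units. The place of Kdr among the probes of its array was also steady, with between 59.6% and 67.7% of the 223 probes at or below it.

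Flt1, the high-affinity receptor and decoy for VEGF-A, ran from 0.0137 (replicate 2) through a median of 0.0179 to 0.0244 (replicate 1) in deposited units. Replicates 2 to 4 lay between 0.0137 and 0.0149, and replicates 1, 5 and 6 between 0.0209 and 0.0244, a total range of 1.78-fold. After median centring the level was -0.052 ± 0.82 (SD, n = 6), with a lowest value of -1.41 on replicate 1, a median of -0.089 and a highest of 1.08 on replicate 6. The array that was highest in deposited units was thus the lowest after centring, and the range widened to 5.60-fold. Without replicate 1 the centred range was 2.48-fold. On that array Flt1 was only 1.69 times the noise bound, against 5.73 to 19.0 times on the others. Between 43.5% (replicate 1) and 76.7% (replicate 6) of probes lay at or below Flt1.

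Flt4, the receptor for VEGF-C and VEGF-D, was the dimmest of the 3 receptor probes relative to noise. Its intensity had a lowest value of 0.0015 (replicate 3), a median of 0.0038 and a highest of 0.0114 (replicate 5). Replicates 1 and 3 were at or under the noise bound, and replicates 2, 4, 5 and 6 exceeded it by 1.43 to 5.27 times. The centred level was -2.20 ± 1.39 (SD, n = 6), from -4.09 on replicate 1 to -0.57 on replicate 5. Its range of 11.5-fold came to 4.00-fold once the arrays under the bound were set to it. Flt4 was the only lymphatic endothelial marker of the list that had a probe, so its source could not be checked against Prox1, Lyve1 or Pdpn.

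Angpt1, the stabilising ligand of TEK, gave values from -0.0008 (replicate 3) through a median of 0.0004 to 0.0029 (replicate 1). Of the 6 values, 3 were above 0, and only the 0.0023 of replicate 4 exceeded the bound of its array, by 1.64 times. No log2 level or ratio was computed for it, and values under the bound do not show that the transcript was absent. Angpt4, a further angiopoietin named after its values were seen, likewise exceeded the bound on 1 of 6 arrays.

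Angpt2, the endothelial ligand of TEK that can oppose ANGPT1, exceeded the noise bound on every array. It was from 2.94 times the bound on replicate 1 to 30.8 times on replicate 4, and in deposited units it divided the samples. Its intensities were 0.0424, 0.0431 and 0.0550 on replicates 1, 4 and 5, and 0.0131, 0.0119 and 0.0135 on replicates 2, 3 and 6. The gap between these sets, 0.0135 to 0.0424, held no sample. After centring, the level was 0.40 ± 0.97 (SD, n = 6), with replicates 4 and 5 at 1.40 and 1.70 and the other 4 between -0.61 and 0.45. Replicates 4 and 5 were therefore high on both scales, while replicate 1 was high in deposited units only and the lowest after centring. The range was 4.97-fold after centring and 4.62-fold in deposited units.

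Efnb2, the arterial ligand ephrin B2, ran from 0.0071 (replicate 3) through a median of 0.0151 to 0.0202 (replicate 1). Replicates 1, 5 and 6 were high, between 0.0188 and 0.0202, as they were for Flt1. The centred level was -0.44 ± 0.93 (SD, n = 6), from -1.68 on replicate 1 to 0.93 on replicate 6, a 6.08-fold range against 2.85-fold in deposited units. On replicate 1 it was 1.40 times the noise bound. Counting the 5 members above 0 on all arrays, 4 ranged over 3-fold after centring (Flt1, Flt4, Angpt2 and Efnb2), against 58.3% of the 175 probes. In deposited units 3 did (Kdr, Flt4 and Angpt2), against 94.9%. These 5 were measured on every array by this filter, and Angpt1 was not counted.

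**Figure D2:**
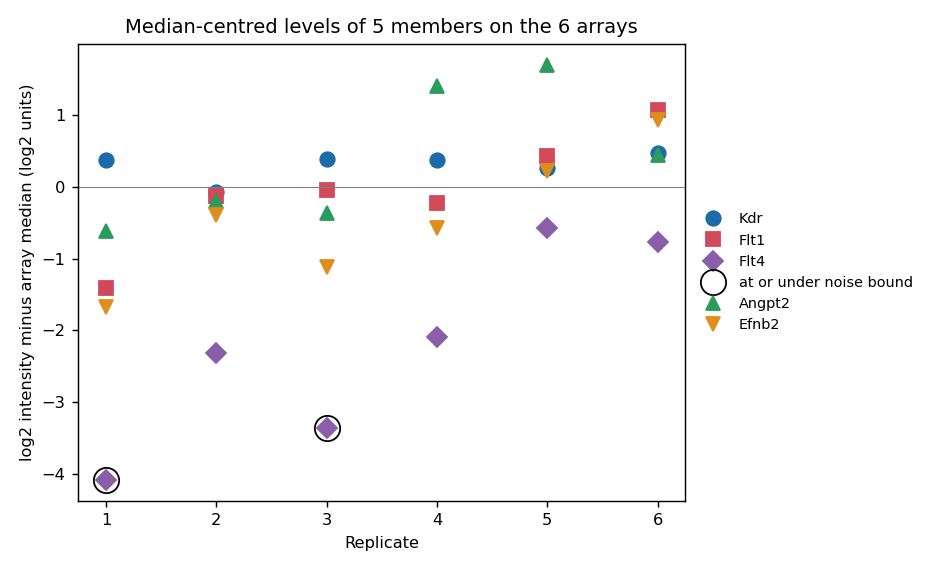
Median-centred log2 intensity (log2 units, 0 is the median of the 175 probes above 0 on all arrays) of 5 members on replicates 1 to 6, with open circles around values at or under the noise bound. Kdr lay between -0.069 and 0.47, while Flt1 and Efnb2 were lowest on replicate 1 (-1.41 and -1.68) and highest on replicate 6 (1.08 and 0.93).

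A ratio of 2 probes on the same array does not depend on the scale of that array, so ratios show which members moved apart. Their absolute size also depends on the probes and is not a ratio of transcripts. Kdr over Flt1 was 3.45 on replicate 1 and 0.66 on replicate 6, with 1.04, 1.35, 1.53 and 0.89 on replicates 2 to 5. The balance of the 2 VEGF-A receptor signals thus differed 5.26-fold between samples, or 2.33-fold without replicate 1. A ratio still depends on the background level, and with the noise bound added to every value the range was 3.77-fold. Without replicates 1 and 6 together, tried after seeing the data, it was 1.71-fold. With noise of 1 bound allowed in both probes, the ratio lay between 1.80 and 9.85 on replicate 1, and between 0.57 and 0.75 on replicate 6. These 2 ranges did not overlap, but they allow for noise near background only. Other noise of measurement was not estimated.

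Kdr over Efnb2 had the same highest and lowest arrays, from 0.73 on replicate 6 through a median of 1.56 to 4.16 on replicate 1. Kdr over Angpt2 had another order, being lowest on replicates 5 and 4, at 0.37 and 0.49, and highest on replicates 1 and 3, at 1.98 and 1.69. With noise allowed for, replicates 4 and 5 reached at most 0.54 and 0.44, and the other 4 arrays were at least 0.80. Kdr over Flt4 ranged 12.5-fold, but 4.36-fold once values under the bound were set to it.

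The ratio of Flt1 to Efnb2 was the steadiest of the 10 ratios between members. It was 1.21, 1.20, 1.28, 1.15 and 1.11 on replicates 1, 2, 4, 5 and 6, and 2.10 on replicate 3. The 5 close arrays spanned 1.15-fold, and all 6 spanned 1.89-fold. In deposited units Efnb2 had its lowest value on replicate 3, at 0.0071, and Flt1 was at 0.0149 there, within the 0.0137 to 0.0149 of replicates 2 to 4. With noise allowed for the ratio there lay between 1.27 and 3.89, which overlaps the ranges of replicates 1, 2, 4 and 5. It does not reach the range of replicate 6, which ended at 1.24. On replicate 1 the noise range was 0.29 to 6.69, so the agreement of that array with the others rests on 2 values close to the bound.

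Of the 10 ratios between members, 9 ranged over 3-fold, against 75.6% of the 13041 pairs of the 162 named genes above 0 on all arrays. The median SD of the log2 ratio was 0.89 over the member pairs and 0.93 over all pairs. The members as a set therefore did not stand out from other genes of the array. Flt1 over Efnb2, with an SD of 0.34, was the only member ratio under 2-fold, against 7.23% of all pairs.

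**Figure D3:**
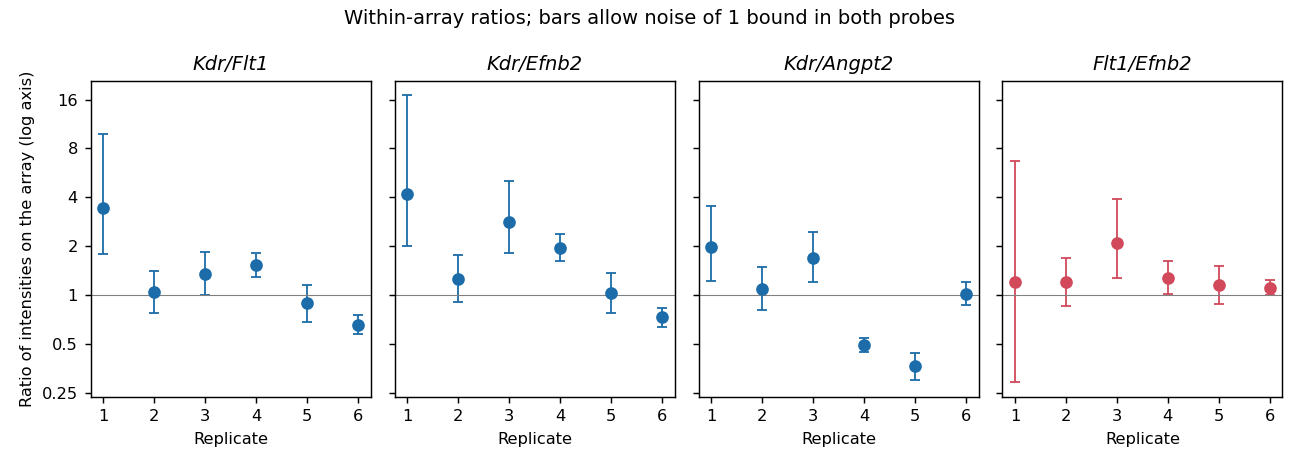
Ratio of deposited intensities on the same array (log axis) for 4 pairs of members on replicates 1 to 6, with dots for the ratio and bars for the range left when noise of 1 bound is allowed in both probes. Kdr over Flt1 was 3.45 on replicate 1 and 0.66 on replicate 6, whereas Flt1 over Efnb2 lay between 1.11 and 1.28 on 5 arrays and at 2.10 on replicate 3.

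Whether a member followed the overall signal of the array was described by the slope of its log2 intensity on the log2 summed intensity. A slope of 1 means in proportion, and 0 means no change with the total. Kdr had a slope of 0.77, close to the median of 0.89 over the 175 probes. Flt1 had 0.092, Efnb2 0.061, Angpt2 0.40 and Flt4 -0.19. Slopes under 0.5 were thus found for 4 of 5 members and for 25.1% of all probes. With the median of the 175 probes or the 28S ribosomal RNA as array signal, they were found for 3 of 5 members. Of the 175 probes, 36 and 31 were then under 0.5. Without replicate 1 all 5 members had a slope under 0.5, against 38.9% of probes, and that of Kdr was 0.30, so the steeper slope of Kdr rests on that array. The other slopes moved too, to -0.29 for Flt1, -0.58 for Efnb2, -0.62 for Flt4 and 0.41 for Angpt2. With replicate 1 left out, replicate 6 set most of each slope, with a total of 13.8 against 35.2 to 41.3. Without replicates 1 and 6 together, tried after seeing the data, slopes were -0.25 for Kdr, -1.04 for Flt1 and -4.53 for Efnb2. For Angpt2 and Flt4 they were -9.15 and -9.31. Those totals were too alike to give a slope.

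Over the 6 arrays, the log2 ratio of Kdr to Efnb2 had a Pearson correlation of 0.86 with the log2 total (exact permutation p = 0.00556, 0.056 after adjustment) and a Spearman correlation of 0.83 (exact permutation p = 0.058, 0.257 after adjustment). For Kdr over Flt1 these were 0.94 (exact permutation p = 0.0139, 0.069 after adjustment) and 0.66 (exact permutation p = 0.175, 0.292 after adjustment). Both ratios were highest on the brightest array and lowest on the dimmest, but neither relation passed the adjusted threshold of 0.05. With the brightest and the dimmest array (replicates 1 and 6) left out, r was 0.69 and 0.24. The totals then spanned only 35.2 to 41.3, so neither r can show whether the ratio moved with the total. Both relations rest on the span that replicates 1 and 6 give. With 28S as array signal, r over all 6 arrays was 0.36 for Kdr over Efnb2 and 0.46 for Kdr over Flt1. Of the 10 ratios, 0 passed after Benjamini-Hochberg adjustment by either coefficient, with 2 at an unadjusted exact permutation p under 0.05 by r and 0 by rho. All tests were two-sided over the 720 pairings of the samples. The part that array brightness and closeness to background have in these ratios was not tested.

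**Figure D4:**
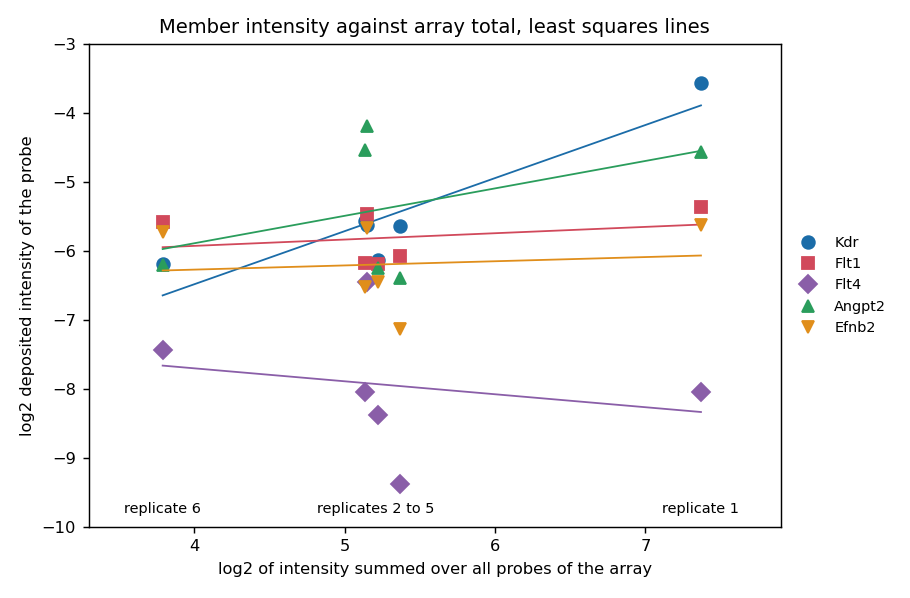
The log2 deposited intensity of 5 member probes against the log2 of the intensity summed over all probes of the array, with 1 point per array and a least squares line per gene. The line of Kdr had a slope of 0.77, and those of Flt1 and Efnb2 were 0.092 and 0.061. Without replicate 1 these became 0.30, -0.29 and -0.58.

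By Pearson's r, the highest correlations of centred levels between members were those among Flt1, Flt4 and Efnb2, and no pair passed adjustment. They include values near background. Flt4 was under the noise bound on replicates 1 and 3, and on replicate 1 Flt1 and Efnb2 were 1.69 and 1.40 times the bound. The correlations were not recomputed with values set to the bound. For Flt4 and Efnb2 Pearson's r was 0.95 (exact permutation p = 0.0111, 0.069 after adjustment), Spearman's rho was 0.89 (exact permutation p = 0.033, 0.167 after adjustment), and r without replicates 1 and 5 was 0.97. For Flt1 and Efnb2 r was 0.93 (exact permutation p = 0.0139, 0.069 after adjustment), rho was 0.83 (exact permutation p = 0.058, 0.194 after adjustment), and r without replicates 1 and 6 was 0.71. For Flt1 and Flt4 r was 0.87 (exact permutation p = 0.022, 0.074 after adjustment), rho was 0.71 (exact permutation p = 0.136, 0.272 after adjustment), and r without replicates 1 and 6 was 0.74. Beside these values stand the slopes on the array total of 0.092, -0.19 and 0.061 for Flt1, Flt4 and Efnb2, whose part in the correlations was not tested. In deposited units r was 0.83 for Flt4 and Efnb2, 0.87 for Flt1 and Efnb2 and 0.63 for Flt1 and Flt4.

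Angpt2 was closest in order to Flt4, with a rho of 0.94 (exact permutation p = 0.0167, 0.167 after adjustment) and an r of 0.77 (exact permutation p = 0.081, 0.201 after adjustment). Kdr had r between -0.016 and 0.12 with the other 4 members, with exact permutation p-values from 0.782 to 0.992, all adjusted to 0.992. When 1 array was left out, replicate 6 moved r most for Flt1, Flt4 and Efnb2, to -0.28, -0.30 and -0.45. For Angpt2 it was replicate 2, to -0.50. Replicates 2 and 5 were the farthest from the median of Kdr. Without them r was 0.83 with Flt1, 0.82 with Flt4, 0.92 with Efnb2 and 0.15 with Angpt2, over the remaining 4 arrays. There the centred level of Kdr was 0.378, 0.384 and 0.379 on replicates 1, 3 and 4, and 0.469 on replicate 6. Each of these r was therefore set by replicate 6 and cannot show that Kdr moved with another member. In all, 0 of 10 pairs passed after adjustment, with 3 at an unadjusted exact permutation p under 0.05 by r and 2 by rho. With 6 samples, a p that misses the threshold does not show that 2 genes were unrelated.

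Among the ligands and partner receptors, 6 of 17 listed symbols had a probe and 4 were above the bound on all arrays. The 17 symbols include older names of Vegfa and Vegfd. Vegfa, the main ligand of KDR and FLT1, had a lowest intensity of 0.0067, a median of 0.0116 and a highest of 0.0647. Vegfb, a ligand of FLT1, ran from 0.0109 to 0.1410, Vegfd, a ligand of FLT4, from 0.0225 to 0.0976, and Tek, the angiopoietin receptor, from 0.0022 to 0.0232. Vegfc exceeded the bound on 4 of 6 arrays and Pgf, the placental growth factor gene, on 2 of 6. After centring, 0 of the 4 partners ranged over 3-fold, with a median range of 2.26-fold, against 58.3% and a median of 3.37-fold for all 175 probes. Their median slope on the array total was 0.96.

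The ratio of Vegfa to Kdr varied less than that of Vegfa to Flt1, a difference that was not tested. Vegfa over Kdr was between 0.47 and 0.77 on the 6 arrays, a 1.64-fold range, whereas Vegfa over Flt1 was between 0.33 on replicate 6 and 2.65 on replicate 1, an 8.03-fold range. Without replicate 1 the latter ranged 2.68-fold. Vegfb over Flt1 ranged 11.1-fold, and 3.56-fold without replicate 1. Angpt2 over its receptor signal Tek was lowest on replicate 1 at 1.83 and highest on replicate 5 at 15.3, with 3.05 to 6.25 on the others. With noise allowed for, the ratio lay between 0.74 and 6.45 on replicate 1 and between 8.16 and 72.25 on replicate 5. On replicate 2 it lay between 2.34 and 30.4, which overlaps both. Tek itself was close to the bound on these arrays.

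Against the endothelial markers Cdh5 and Tek, Kdr had a narrower range than Flt1 or Efnb2, which was not tested, while against Pecam1 the order depended on replicate 1. Kdr over Cdh5, the gene of the endothelial junction cadherin, lay between 0.29 and 0.59, a 2.00-fold range, and Kdr over Tek ranged 2.03-fold. Ratios to Tek are uncertain, as Tek was close to the bound. With noise allowed for, Kdr over Tek lay between 2.60 and 32.8 on replicate 2, and Flt1 over Tek between 0.27 and 4.41 on replicate 1. Kdr over Pecam1, an endothelial adhesion molecule, ranged 2.97-fold and was lowest on replicate 5. For Flt1 the ranges were 5.73-fold against Cdh5, 9.03-fold against Tek and 3.49-fold against Pecam1. For Efnb2 they were 6.22-fold, 9.81-fold and 3.79-fold. Each of these ratios of Flt1 and Efnb2 was lowest on replicate 1 and highest on replicate 6. Without replicate 1 they came to 4.66-fold, 4.72-fold and 2.67-fold for Flt1 and to 5.77-fold, 5.41-fold and 2.77-fold for Efnb2. Kdr over Pecam1 was highest on replicate 1 and came to 2.95-fold without it, wider than for Flt1 or Efnb2, while its ranges against Cdh5 and Tek did not involve that array. In whole muscle, more endothelial cells and more RNA per cell cannot be told apart. Kdr over Pdgfrb, the pericyte receptor and the only mural marker with a probe, ranged 1.46-fold.

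The genes most like each member were taken as the 3 with the smallest SD of the within-array log2 ratio to it over the 6 arrays, among 161 genes. For Kdr these were Itgb5, an integrin chain (SD 0.17), the matrix gene Tnxb (0.20) and the growth factor Tgfb1 (0.21), against a median of 0.68 over all genes. For Flt1 they were Egf (0.25), Efnb2 (0.34) and the 28S ribosomal RNA (0.43), against a median of 1.10. For Efnb2 they were Egf (0.25), Efnb1, the gene of a related ephrin (0.29), and Flt1 (0.34), against a median of 1.25. Flt1 and Efnb2 shared Egf as their nearest gene. Egf ran from 0.0059 to 0.0157 and had a slope of 0.20 on the array total. Its highest value was on replicate 1, where the bound was 0.0144. With noise allowed for, Flt1 over Egf lay between 0.33 and 29.8 on that array, and Efnb2 over Egf between 0.19 and 26.6. The likeness to Egf thus rests there on values close to the bound.

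Angpt2 kept closest to Il6st, the shared receptor chain of the interleukin-6 family (SD 0.24), followed by the polymerase gene Pold1 (0.47) and Igfbp6, a binding protein of insulin-like growth factors (0.54), against a median of 1.20. Il6st itself had a slope of 0.51. Flt4 kept closest to the growth factor Igf2 (SD 0.33), Csf2rb2, a cytokine receptor chain (0.45), and Ang, the angiogenin gene (0.46), against a median of 1.66. These are the smallest of 161 values in each case, over 6 samples, and which genes were nearest depended on the samples. Without replicate 6, 0 of the 3 genes were named again for Kdr, and 1 of 3 each for Flt1 and Angpt2. Likewise 1 of 3 was kept for Kdr without replicate 1 or 2, for Flt1 without replicate 1 or 4, for Angpt2 without replicate 4 and for Efnb2 without replicate 2. For Flt4, 2 or 3 were kept whichever array was left out. However, Flt4 was under the noise bound on replicates 1 and 3, so its ratios there rest on values within noise.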

How the data were processed

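Expression arrays of 6 samples in 1 group were analysed from the deposited series table, which held 1 intensity per probe and array. The authors deposited these intensities on a linear scale with some values below 0, as the table itself shows. Scanner, background method and normalization are not given in the sources used here. Probes were named from the platform annotation, which listed 205 of 223, and entrez identifiers of the 6 members matched their current symbols. For genes with 2 probes the one with the higher mean was used.

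Intensities were converted to log2 with no pseudocount for the 175 probes above 0 on all arrays, and each array was centred on their median. Ratios, least squares slopes and exact permutation tests were computed with Python 3.11.15, NumPy 2.4.6 and pandas 2.3.3, and were tested on simulated data. Correlations were adjusted by Benjamini and Hochberg over 10 pairs. Alternatives were deposited units, quantile normalization, 28S scaling, handling of values near the bound, other measures of array signal and leaving out arrays. Text genes were the members, the 3 nearest genes of each and measured genes of the lists. The number of arrays limits precision. The members and lists were chosen with earlier results of these data known. The planned identity of member proteins was not computed, as no protein sequences were used here.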

Additional observations from a re-analysis of the deposited data

Results flagged for a closer look

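Among 21 sets of 6 values (centred levels, deposited intensities and log2 ratios of members), 2 held a sample whose gap to its nearest neighbour, as a share of the whole range, exceeded Dixon's 95% critical value for 6 samples. Chance flags about 1 in 20 sets, which would be 1.05 here. The deposited intensity of Kdr on replicate 1 had a gap of 0.89 of the range (0.0841 against 0.0212 on the next array). Replicate 1 also had the highest summed intensity, and after centring Kdr on that array lay within the range of the others. The log2 ratio of Flt1 to Efnb2 on replicate 3 had a gap of 0.78 of the range (a ratio of 2.10 against 1.28).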

How the results depend on the processing

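Spread depended on scale and array. In deposited units the ranges were 6.14-fold for Kdr, 1.78-fold for Flt1 and 2.85-fold for Efnb2, and after 28S scaling 3.93-fold, 2.17-fold and 3.19-fold. Leaving out each array in turn gave 1.16 to 1.45-fold for Kdr, 2.48 to 5.60-fold for Flt1, 6.93 to 11.5-fold for Flt4, 4.03 to 4.97-fold for Angpt2 and 3.73 to 6.08-fold for Efnb2. Without replicates 1 and 6 together, tried after seeing the data, Flt1 ranged 1.58-fold and Efnb2 2.53-fold. Probes over 3-fold numbered 102 after centring, 166 in deposited units and 161 after 28S scaling. Probes with a slope under 0.5 numbered 44, 41 to 68 when leaving out each array, and 91 without replicates 1 and 6; for members these were 4, and 4 to 5. Slopes of Flt4 turned to 0.41 and 0.42 when values were set to the bound or raised by it. Leaving out each array gave slopes of 0.30 to 1.00 for Kdr, -0.29 to 0.27 for Flt1 and -0.58 to 0.34 for Efnb2, and with 28S as array signal Flt1 had 0.43 and Efnb2 0.51. The cause was not tested.

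No pair of members passed adjustment under any alternative computed on all 6 arrays, for correlations or for relations to the total. Among those that missed the threshold, signs turned as follows. The r of Kdr and Flt4 was 0.017 with the median of probes above the bound, and that of Kdr and Angpt2 was -0.051 after quantile normalization. Leaving out each array gave -0.28 to 0.45 for Kdr and Flt1, -0.30 to 0.16 for Kdr and Flt4, -0.50 to 0.26 for Kdr and Angpt2 and -0.45 to 0.21 for Kdr and Efnb2. For relations to the total, setting values to the bound gave -0.53 for Flt1 over Flt4, 0.011 for Flt4 over Angpt2 and 0.71 for Flt4 over Efnb2, and adding the bound gave -0.38 for Flt1 over Flt4 and 0.54 for Flt4 over Efnb2. With 28S as array signal r was 0.016 for Flt1 over Angpt2, -0.12 for Flt1 over Efnb2 and -0.061 for Angpt2 over Efnb2, and with the probe median -0.069 for Flt1 over Efnb2. Leaving out each array gave -0.078 to 0.64 for Kdr over Angpt2, -0.16 to 0.49 for Flt1 over Efnb2 and -0.080 to 0.65 for Angpt2 over Efnb2. No paired analysis was possible because there was 1 group. Closeness to background limits Flt4, Angpt1, ratios to Tek and, on replicate 1, Flt1, Efnb2 and Egf.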

Other observations

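Of 23 other vascular and hypoxia genes on the list, 19 had a probe, 12 were above 0 on all arrays and 10 above the noise bound. After centring, 8 of the 12 ranged over 3-fold, with a median of 4.48-fold, against 58.3% and 3.37-fold for all 175 probes. Hmox1, the haem oxygenase gene, had a centred SD of 1.22 and a slope of 1.69 on the array total. Hif1a, the hypoxia-inducible factor, ranged 4.08-fold and its partner Arnt 6.56-fold, with slopes of 1.07 and 1.28, against 0.092 for Flt1 and 0.061 for Efnb2. Slopes under 0.5 were found for 3 of the 12, namely Ang (-0.47), Ang2 (0.10) and Agtr2 (-1.14). This was about the share over all 175 probes, 25.1%. Ace, the angiotensin-converting enzyme of endothelium, ranged 1.61-fold with a slope of 0.80, close to the 0.77 of Kdr.

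Of the other lists, 7 of 9 muscle fibre markers had a probe, all above the bound, with a median range of 3.02-fold and a median slope of 1.15. The myeloid and inflammatory list had 2 of 8 symbols on the array, Il1b and Il6, and neither exceeded the bound on any array. The list named 1 gene under both an old and a new symbol. Pdgfra, the only fibroblast marker with a probe, ranged 2.56-fold, and Pparg, the only adipocyte one, had a centred SD of 1.24 with a slope of 0.028. No blood or neural marker of the lists had a probe. Ephb3, an Eph receptor named after its values were seen, exceeded the bound on 0 of 6 arrays. Whether the mix of cells in the cryosections bears on the member ratios was not tested.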
